A study of Homo sapiens with 12 samples.

Results

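The neuronal and neuroendocrine genes described here are 39 genes of neurons and neuroendocrine cells: granins and other proteins of the secretory granule, prohormone-processing enzymes, peptides and hormones, synaptic proteins, transcription factors, neuronal adhesion molecules, neurofilaments and other neuronal cytoplasmic proteins, and enzymes of amine and acetylcholine metabolism. They were read by gene symbol from the array annotation. Of the 39, 36 had a probe set with that symbol, out of 11939 genes with one in the 8-array table, and 27 of the 36 were bright enough to be tested, out of 9434 genes. PCSK1 and PCSK2 (enzymes that cut prohormones) and NEUROD1 (a neuronal transcription factor) are not analysed here.

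RNA of 2 human prostate cancer lines, DU145 and 22Rv1, was hybridised to Affymetrix arrays, each line as cells selected for resistance to docetaxel, a taxane that stabilises microtubules (labelled DU145-DR and 22Rv1-DR), and as sensitive parental cells. Resistant cells had been kept under docetaxel and parental cells had not, per the labels, so resistance and exposure to the drug cannot be told apart. Each of the 4 groups had 3 arrays. Replicates 1 and 2 are in an 8-array table of one array type and gave the tests, while replicate 3 of each group is on a larger array type and gave a difference with no test, called the third pair below. The labels do not say whether replicates came from separate cultures, so a p-value measures only the spread between these arrays.

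Neuroendocrine cells store peptides in dense-core granules, which granins help to form, and release them on a signal through the same SNARE machinery that neurons use at the synapse. Scattered cells of this kind occur in the normal prostate, and prostate tumours can acquire granins, synaptophysin and neuronal adhesion molecules after treatment, a state called neuroendocrine differentiation. Several of these genes, such as neurofilaments and cholinesterases, are also made outside the nervous system.

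Values are intensity on a linear scale, and changes are log2 of the intensity plus 16, resistant minus parental, ± SE from limma. The threshold for calling a change was an adjusted p (Benjamini-Hochberg, 9434 genes) under 0.05. In the 8-array table the lowest readings differed by line, with the 5th percentile at 35.8 to 38.6 in DU145-DR and DU145 and at 11.5 to 12.3 in 22Rv1-DR and 22Rv1, so levels are not compared between lines there. On the larger array it was 10.9 to 11 in all 4 groups. ABCB1, the drug efflux pump used as a check of the resistance label, read 6165 and 1618 in DU145-DR, against 78.8 and 68.1 in DU145, and 3984 and 3259 in 22Rv1-DR, against 15.6 and 12.8 in 22Rv1. Among markers of prostate luminal cells, 7 of 10 had a probe set, with summed intensities of 442 to 619 in DU145-DR, 433 to 665 in DU145, 1600 to 1945 in 22Rv1-DR and 1671 to 2068 in 22Rv1. The DU145-DR and DU145 sums include that line's higher floor. On the larger array KLK2 read 18.3 and 22.6 there, and KLK3 20.7 and 23.8. The 22Rv1 sums hide opposite signs. Of 4 markers tested, FKBP5 fell in 22Rv1-DR (-0.87 ± 0.20, adjusted p = 0.0407). KLK2 (0.42), KLK3 (-0.78) and HOXB13 (-0.71) did not pass.

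In DU145-DR, 8 of the 27 tested neuronal and neuroendocrine genes rose and 2 fell, and 17 did not pass. Those that rose were SCG5, NRCAM, NCAM1, L1CAM, NEFL, NEFM, INA and RTN1, and those that fell were BCHE and NMB. Over all genes tested in that comparison 10.8% changed, 5.53% upward and 5.27% downward. In 22Rv1-DR, 3 of the 27 rose (NRCAM, L1CAM and SNAP25), 3 fell (CGA, MAOA and NMB) and 21 did not pass, where 5.54% of all genes changed, 3.08% upward and 2.46% downward. The median change of the 27 was 0.08 in DU145-DR and -0.02 in 22Rv1-DR, beside -0.01 and 0.00 over all genes. NRCAM and L1CAM rose and NMB fell in both lines. Of the genes called, NRCAM, SNAP25 and INA had only probe sets whose names end in _s_at or _x_at, which can bind more than the named transcript. Of the 27, 5 passed the brightness filter through 1 group alone: SCG2, SCG5 and NCAM1 through DU145-DR, and CNTN1 and BCHE through DU145. Within a line, others also passed through the group where they were high: NRCAM through DU145-DR and through 22Rv1-DR, RTN1 through DU145-DR, L1CAM through 22Rv1-DR and MAOA through 22Rv1. A gene that passed in that way was likely to differ, so the counts among the 27 are a description. With no filter on dim genes, 10 of the 36 changed in DU145-DR, where 8.16% of 11939 genes did, 6 of 36 in 22Rv1-DR, where 4.19% did, and the lines differed for 5 of 36, where 6.24% of genes did. The genes were chosen with earlier results of these data known, so these counts too are only a description. Whether the arrays of 2 groups overlap, as given for single genes below, says little, since they did not in 41.6% of all genes in DU145-DR and in 51.8% in 22Rv1-DR.

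**Figure D1:**
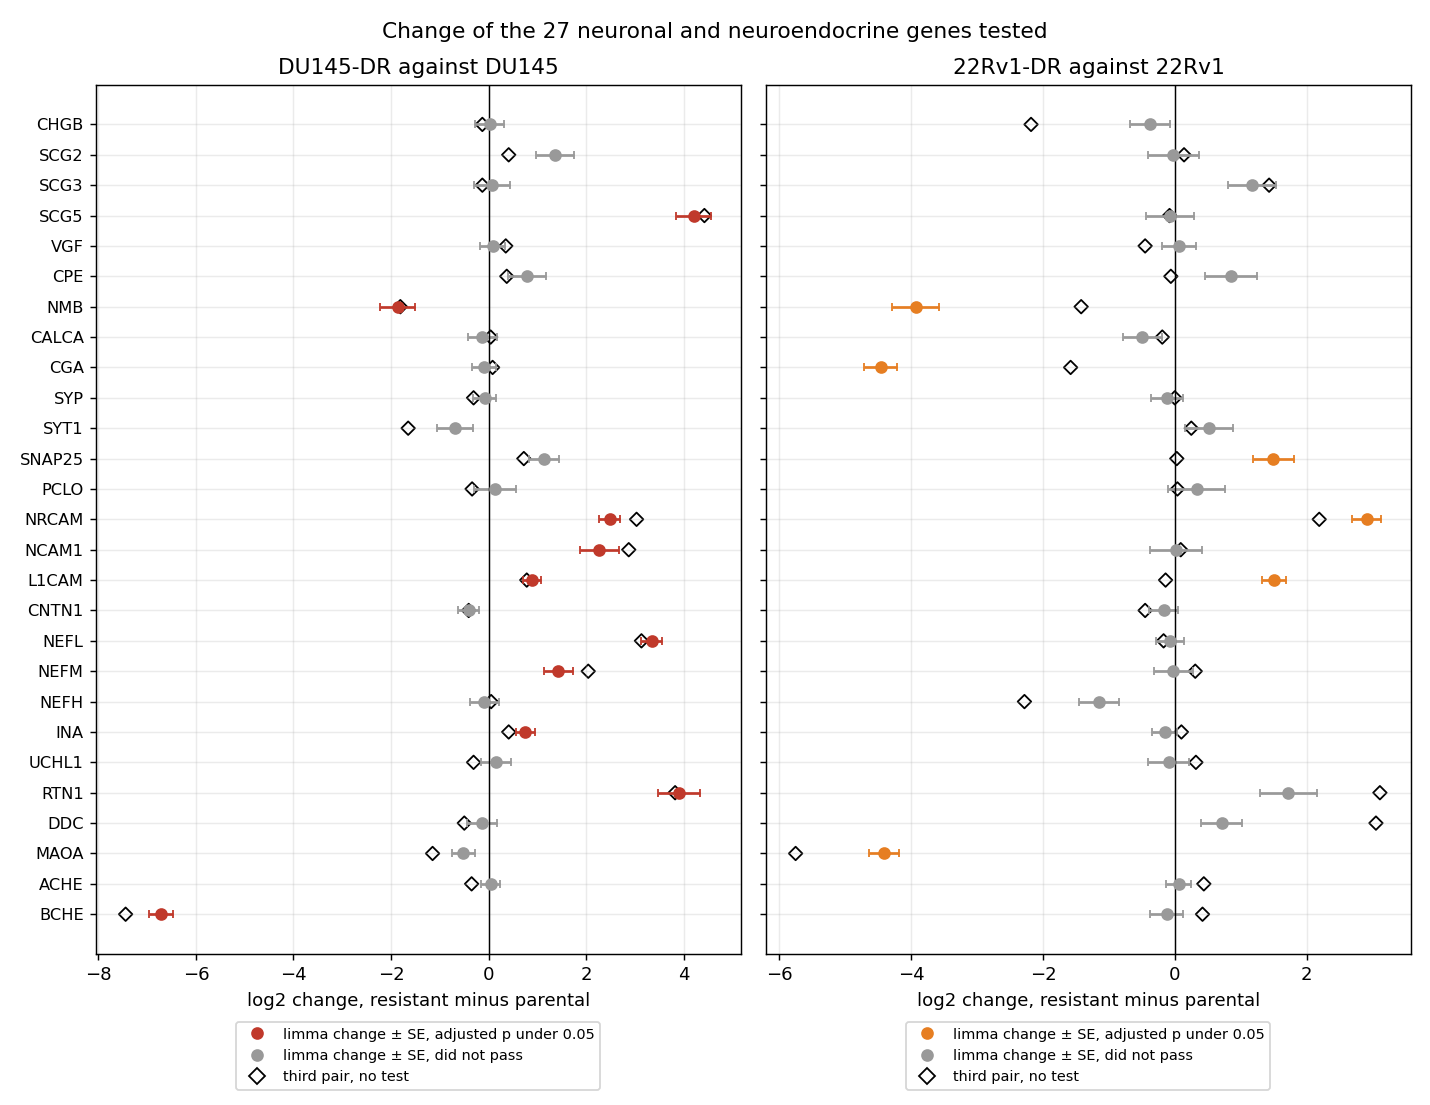
Log2 change, resistant minus parental, of the 27 tested genes in DU145-DR against DU145 (left) and 22Rv1-DR against 22Rv1 (right); filled points are limma estimates ± SE from 2 arrays a group, coloured where the adjusted p was under 0.05, and open diamonds are the third pair, untested. BCHE fell by 6.72 in DU145-DR and SCG5 rose by 4.20, while in 22Rv1-DR the falls of CGA and MAOA exceeded 4 log2 units.

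The promoters of 6 of these genes are shown because their genes moved together: SCG5, NRCAM and RTN1 were among the largest rises in DU145-DR, and CGA, MAOA and NMB were the 3 that fell in 22Rv1-DR. NEFL rose more than NRCAM in DU145-DR (3.34 against 2.48), but its promoter is not shown. The letters are RefSeq's (GRCh38.p14), written 5′ to 3′ on the gene's own strand: SCG5 chr15:32641460-32641759 on the plus strand, NRCAM chr7:108456387-108456686 on the minus strand, RTN1 chr14:59610090-59610389 on the minus strand, CGA chr6:87095057-87095356 on the minus strand, MAOA chrX:43656049-43656348 on the plus strand and NMB chr15:84658150-84658449 on the minus strand. Capitals mark matches on either strand to TGACGTCA (the cAMP response element), TTCAGCACC and GGACAGC (the left and right parts of the site of REST, a repressor of neuronal genes), GGGCGG (the GC box) and TATAAA (the TATA box).
SCG5: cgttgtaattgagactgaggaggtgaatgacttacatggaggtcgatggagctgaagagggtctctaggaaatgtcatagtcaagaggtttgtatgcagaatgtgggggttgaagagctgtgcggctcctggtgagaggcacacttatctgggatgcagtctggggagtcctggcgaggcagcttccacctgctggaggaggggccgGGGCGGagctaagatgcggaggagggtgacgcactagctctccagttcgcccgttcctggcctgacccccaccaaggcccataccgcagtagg
NRCAM: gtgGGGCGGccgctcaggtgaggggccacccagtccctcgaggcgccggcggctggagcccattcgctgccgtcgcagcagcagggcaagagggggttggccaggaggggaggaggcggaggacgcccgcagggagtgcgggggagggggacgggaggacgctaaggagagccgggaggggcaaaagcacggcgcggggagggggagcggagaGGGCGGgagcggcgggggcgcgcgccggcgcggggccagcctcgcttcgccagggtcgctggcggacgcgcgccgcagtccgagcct
RTN1: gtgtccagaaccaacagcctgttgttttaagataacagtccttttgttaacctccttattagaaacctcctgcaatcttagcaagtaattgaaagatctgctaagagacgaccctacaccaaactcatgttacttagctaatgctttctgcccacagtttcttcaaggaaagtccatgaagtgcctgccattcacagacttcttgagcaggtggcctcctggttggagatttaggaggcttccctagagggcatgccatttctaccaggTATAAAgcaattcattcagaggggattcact
CGA: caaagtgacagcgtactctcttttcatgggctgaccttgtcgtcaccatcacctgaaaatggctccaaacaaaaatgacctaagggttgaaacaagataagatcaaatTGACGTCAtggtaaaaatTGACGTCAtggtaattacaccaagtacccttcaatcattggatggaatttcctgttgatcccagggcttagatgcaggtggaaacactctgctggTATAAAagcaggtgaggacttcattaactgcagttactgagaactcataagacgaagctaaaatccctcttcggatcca
MAOA: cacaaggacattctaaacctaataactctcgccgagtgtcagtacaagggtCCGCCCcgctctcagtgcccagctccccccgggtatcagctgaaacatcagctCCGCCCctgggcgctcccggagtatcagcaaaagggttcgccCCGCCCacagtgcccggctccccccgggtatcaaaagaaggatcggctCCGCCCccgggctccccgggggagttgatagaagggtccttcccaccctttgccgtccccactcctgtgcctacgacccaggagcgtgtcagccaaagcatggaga
NMB: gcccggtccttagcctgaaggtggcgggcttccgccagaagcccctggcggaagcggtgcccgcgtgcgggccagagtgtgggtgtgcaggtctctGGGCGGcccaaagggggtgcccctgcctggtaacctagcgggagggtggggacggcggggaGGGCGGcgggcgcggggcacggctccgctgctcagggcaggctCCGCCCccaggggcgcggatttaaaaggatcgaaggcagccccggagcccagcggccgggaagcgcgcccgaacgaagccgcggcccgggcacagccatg
The windows differ in make-up. CGA's holds the cAMP response element at 2 places, starting at -142 and -124 relative to the start of transcription, and a TATA box at -29. MAOA's holds 4 GC boxes, all on the strand opposite the gene. NMB's holds 3, of which 1 is on the opposite strand, and NRCAM's holds 2, both on the gene's own strand, while RTN1's has no GC box. The TATAAA marked in RTN1's starts at 20, downstream of the start of transcription. Of 35116 such windows in the table, 1.85% held the cAMP response element, 45% a GC box, 11.5% a TATA box, 0.376% the left part of the REST site and 6.03% the right part. Among the 30 neuronal and neuroendocrine genes with a window, 5 held the cAMP response element, 19 a GC box, 6 a TATA box, 2 the left part and 4 the right part. None of the 6 windows printed holds either part of the REST site in these letters.

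Of the granule proteins, SCG5 (secretogranin 5, or 7B2, the chaperone of the prohormone convertase PCSK2) had an intensity of 2019.8 and 809 in the 2 DU145-DR arrays, against 59.3 and 49.9 in DU145. Both DU145-DR arrays lay far above both DU145 arrays, which sat low on a scale whose 25th percentile was 62.2 to 76.1. The change was 4.20 ± 0.36 (adjusted p = 0.000335), and the third pair read 861 in DU145-DR against 24.9 in DU145. In 22Rv1-DR SCG5 stayed near the floor, at 13.6 and 11.4 against 14.6 and 13.3 in 22Rv1. In bulk cells such as these, a change in the share of cells and a change in RNA per cell cannot be told apart. SCG2 (secretogranin 2) read 119 and 324 in DU145-DR and 83.3 and 54.9 in DU145, a difference that did not pass (1.35 ± 0.39, adjusted p = 0.0613). CHGA (chromogranin A, the usual blood marker of neuroendocrine tumours) was too dim to test, between 48.8 and 58.9 on the DU145-DR and DU145 arrays. It read 22.2 and 14.7 in 22Rv1-DR and 41.6 and 30.3 in 22Rv1, an untested difference of -0.59, and the third pair differed by -0.11. The brightness cut of 74.0 lay above the median of every 22Rv1-DR and 22Rv1 array of the 8 (59.3 to 69.1), so a gene at a middling rank there could not be tested unless it was brighter in DU145-DR or DU145. CHGB (chromogranin B) read 278 and 296 in 22Rv1-DR and 292 and 491 in 22Rv1, with overlap of the groups and no call (-0.38 ± 0.30, adjusted p = 0.715), while the third pair differed more, at 347 in 22Rv1-DR against 1629 in 22Rv1. SCG3 (secretogranin 3, which binds granins to the granule membrane) was 724 and 419 in 22Rv1-DR, against 357 and 154 in 22Rv1, and did not pass (1.17 ± 0.37, adjusted p = 0.139). VGF (a granin-like peptide precursor) had changes of 0.08 ± 0.26 in DU145-DR and 0.06 ± 0.26 in 22Rv1-DR, neither of which passed.

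Carboxypeptidase E (CPE), which trims prohormones after the convertases have cut them, was bright in every group. It read 671 and 1305 in DU145-DR, against 362 and 781 in DU145, and 1333 and 1209 in 22Rv1-DR, against 734 and 666 in 22Rv1. Neither change passed (0.79 ± 0.39 and 0.85 ± 0.39, adjusted p = 0.267 and 0.347). The third pair differed by 0.37 in DU145-DR and by -0.06 in 22Rv1-DR. The other CPE probe set did not pass either (0.68 ± 0.23 in DU145-DR and 0.97 ± 0.23 in 22Rv1-DR). On the third pair that probe set had the opposite sign, at -1.43 and -0.53.

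Among peptides and hormones, CGA and NMB fell. CGA (the alpha subunit shared by the pituitary glycoprotein hormones and chorionic gonadotropin) had 117 and 103 in 22Rv1-DR, against 3214 and 2336 in 22Rv1. The groups were far apart, and the change was -4.46 ± 0.25 (adjusted p = 5.41e-05). On the third pair CGA read 42.2 in 22Rv1-DR against 158 in 22Rv1, so the parental array was dimmer there and the difference was -1.58. In DU145-DR, with 57.3 and 42.5 against 66.3 and 42.8 in DU145, CGA overlapped between the groups. NMB (neuromedin B, a bombesin-like peptide) was the one gene of the 27 that fell in both lines. It had 99.7 and 252 in DU145-DR, against 556 and 699 in DU145 (-1.86 ± 0.36, adjusted p = 0.0138, and -1.81 on the third pair), and 84.5 and 106 in 22Rv1-DR, against 1795 and 1563 in 22Rv1 (-3.93 ± 0.36, adjusted p = 0.000437, and -1.42 on the third pair). Without DU145 replicate 1 or 2 the DU145-DR call for NMB was lost (adjusted p = 0.0616 and 0.0943). CALCA (the calcitonin and CGRP precursor) did not pass in either line, and GRP (gastrin-releasing peptide) and NTS (neurotensin) were dim in all groups.

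**Figure D2:**
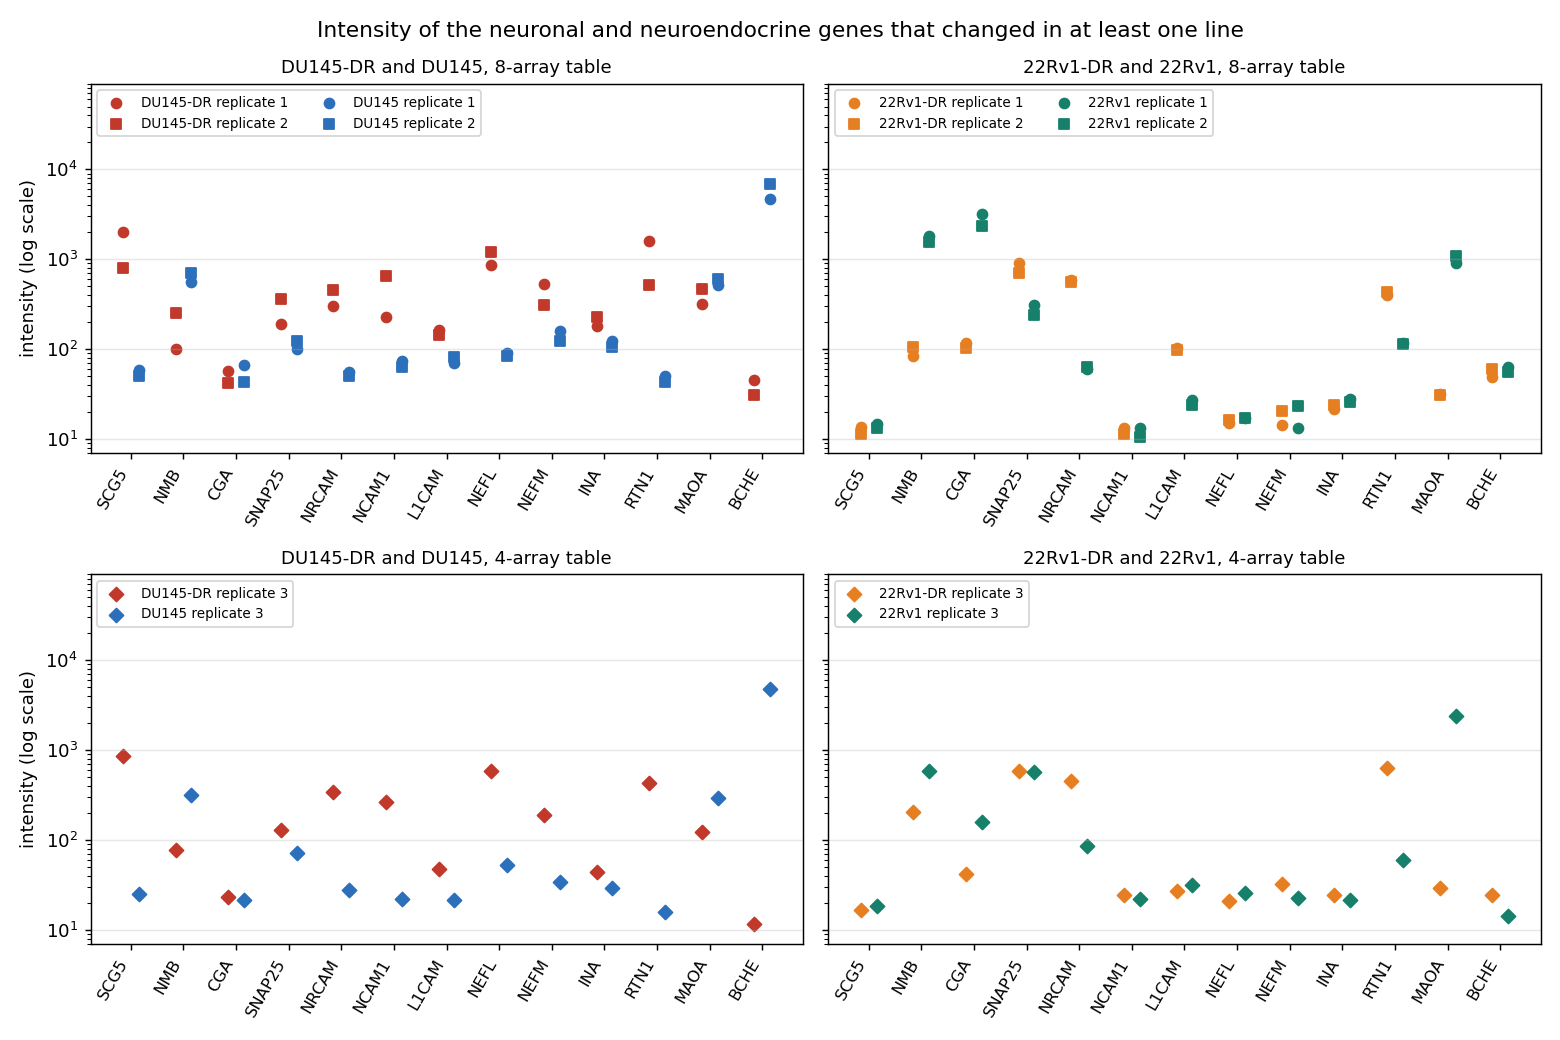
Intensity on a log scale, on each array, of the 13 genes that changed in DU145-DR, in 22Rv1-DR or in the difference between the lines; the upper panels show replicates 1 and 2 and the lower panels replicate 3, with resistant cells left of parental cells. SCG5, NRCAM, NEFL and RTN1 lie above the parental values on all 3 DU145-DR arrays, and BCHE lies below them on all 3.

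Of the synaptic genes, SNAP25 (a SNARE protein that drives fusion of vesicles with the cell membrane) rose in 22Rv1-DR, with 904 and 709 against 313 and 242 in 22Rv1 (1.49 ± 0.31, adjusted p = 0.0269). The third pair did not differ to that extent, at 584 in 22Rv1-DR against 572 in 22Rv1, and the gene's other probe set did not pass (0.97 ± 0.28, adjusted p = 0.124). Without any 1 of the 6 arrays DU145 1 and 2, 22Rv1-DR 1 and 2, and 22Rv1 1 and 2, the SNAP25 call was lost, with adjusted p of 0.0537 to 0.213. In DU145-DR SNAP25 was 189 and 365, against 100.4 and 124 in DU145, and just missed the threshold (1.13 ± 0.31, adjusted p = 0.0515). SYT1 (the calcium sensor of release), SYP (synaptophysin, a synaptic vesicle protein) and PCLO (a scaffold of the presynaptic zone) did not pass in either line. For SYT1 the change in DU145-DR was -0.69 ± 0.36, while the third pair read 83.3 in DU145-DR against 296 in DU145 (-1.65). Its other probe set differed by -1.04 on that pair. SYN1 (synapsin 1) and the transcription factor INSM1 were dim in all groups.

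Of the 4 adhesion molecules tested, NRCAM, NCAM1 and L1CAM rose in DU145-DR, and NRCAM and L1CAM in 22Rv1-DR. NRCAM (a neuronal cell adhesion molecule of the L1 family) had 300.2 and 455 in DU145-DR, against 56.1 and 50.6 in DU145, and 588 and 560.3 in 22Rv1-DR, against 61.0 and 63.6 in 22Rv1. All resistant arrays were above all parental ones, with changes of 2.48 ± 0.22 (adjusted p = 0.000387) and 2.91 ± 0.22 (adjusted p = 0.000193), and the third pair gave 3.03 in DU145-DR and 2.19 in 22Rv1-DR. The gene's other probe set, whose name ends in _x_at, did not pass in either line. L1CAM (the founding member of that family, which links adjacent cells) had 165 and 144 in DU145-DR, against 69.6 and 82.1 in DU145 (0.89 ± 0.18, adjusted p = 0.0177), and 104 and 99.0 in 22Rv1-DR, against 27.5 and 23.8 in 22Rv1 (1.5 ± 0.18, adjusted p = 0.00209). The third pair agreed in sign in DU145-DR (0.78) but not in 22Rv1-DR (-0.14), the gene's other probe set passed in neither line, and without DU145 replicate 1 the DU145-DR call was lost (adjusted p = 0.0903). With all 12 arrays and the table as a block, L1CAM passed in neither line (adjusted p = 0.292 in DU145-DR and 0.429 in 22Rv1-DR). NCAM1 (CD56, used to find neuroendocrine cells in tissue) rose in DU145-DR, with 231 and 653 against 74.0 and 63.1 in DU145 (2.27 ± 0.39, adjusted p = 0.00863, and 2.87 on the third pair). Its 2 other bright probe sets did not pass, and the call was lost without DU145 replicate 1 or 2 (adjusted p = 0.0556 and 0.0663). In 22Rv1-DR NCAM1 was near the floor, at 13.4 and 11.4 against 13.4 and 10.7 in 22Rv1. CNTN1 (contactin 1) did not pass in either line, and CHL1 was dim.

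Of the 3 neurofilament chains, the light and the medium one rose in DU145-DR. NEFL (the light chain) had 867 and 1209 in DU145-DR, against 90.5 and 83.3 in DU145 (3.34 ± 0.21, adjusted p = 5.61e-05), with 584 against 52.4 on the third pair. Both of its other probe sets rose too, by 1.74 ± 0.28 (adjusted p = 0.00757) and 3.74 ± 0.18 (adjusted p = 2.46e-05). NEFM (the medium chain) had 530.1 and 309 in DU145-DR, against 159 and 125 in DU145 (1.43 ± 0.29, adjusted p = 0.0169, and 2.04 on the third pair), a call lost without DU145 replicate 1 or 2 (adjusted p = 0.0599 and 0.103). INA (alpha-internexin, a partner of neurofilaments in axons) had 180 and 231 in DU145-DR, against 124 and 106 in DU145, the smallest change called in DU145-DR (0.75 ± 0.19, adjusted p = 0.0440). It passed in only 1 of the 8 fits that left out an array, the one without DU145-DR replicate 1. NEFH (the heavy chain) did not follow: it was near the floor in DU145-DR and DU145, and in 22Rv1-DR had 228 and 174, against 584 and 362 in 22Rv1, which missed the threshold (-1.15 ± 0.30, adjusted p = 0.0684, and -2.28 on the third pair). RTN1 (a reticulon of the endoplasmic reticulum in neuronal and neuroendocrine cells) had 1596 and 516 in DU145-DR, against 50.6 and 42.8 in DU145 (3.89 ± 0.43, adjusted p = 0.000978, and 3.82 on the third pair). In 22Rv1-DR RTN1 had 402 and 431, against 116 and 115 in 22Rv1, and missed the threshold in the 8-array fit (1.72 ± 0.43, adjusted p = 0.0585), while the third pair read 639 in 22Rv1-DR against 59.7 in 22Rv1. Its other probe set did not pass in DU145-DR (1.26 ± 0.50, adjusted p = 0.179) but differed by 3.07 on the third pair. UCHL1 (a ubiquitin hydrolase abundant in neurons) was among the brightest genes of DU145-DR and DU145, at 7434 and 14972 against 8481 and 10661, with overlap of the groups and a change of 0.15 ± 0.31, and sat near the floor in 22Rv1-DR and 22Rv1.

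Of the enzymes that make or break transmitters, BCHE (butyrylcholinesterase, which cleaves acetylcholine and other choline esters) had the largest change of all 27 genes. It read 45.6 and 31.1 in DU145-DR, against 4640 and 6889 in DU145, a fall to the level of the floor (-6.72 ± 0.25, adjusted p = 9.72e-06), so the size of the change depends on where the floor lies. The third pair gave 11.6 in DU145-DR against 4771 in DU145. In 22Rv1-DR and 22Rv1 BCHE was dim, at 48.5 and 60.1 against 64 and 56.5. MAOA (monoamine oxidase A, which degrades serotonin and noradrenaline) fell in 22Rv1-DR, with 31.8 and 31.3 against 910.2 and 1090 in 22Rv1 (-4.41 ± 0.23, adjusted p = 3.7e-05). The third pair gave 29.2 in 22Rv1-DR against 2419 in 22Rv1, and both other probe sets of MAOA fell as well, with changes of -2.57 ± 0.30 and -2.16 ± 0.28 (adjusted p = 0.00216 and 0.0032). In DU145-DR MAOA had 320 and 471, against 523 and 605 in DU145, and did not pass (-0.52 ± 0.23, adjusted p = 0.214). DDC (aromatic amino acid decarboxylase, which makes serotonin and dopamine) had 331 and 377 in 22Rv1-DR, against 206.5 and 212 in 22Rv1, and did not pass (0.71 ± 0.31, adjusted p = 0.296), while the third pair gave 1992 in 22Rv1-DR against 226 in 22Rv1. ACHE (acetylcholinesterase) had changes of 0.04 ± 0.19 and 0.06 ± 0.19, and TH (the first enzyme of catecholamine synthesis) and MAOB were dim. The 9 dim genes, with GAP43 (a growth cone protein) among them, lay, on the probe set that stands for each, between 31.1 and 90.5 on the DU145-DR and DU145 arrays and between 10.3 and 41.6 on the 22Rv1-DR and 22Rv1 arrays. Another GAP43 probe set, named _s_at, was bright enough to test, at 206.5 and 62.7 in DU145-DR against 224 and 63.1 in DU145, and did not pass (-0.06 ± 0.57, adjusted p = 0.995).

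The difference between the lines was tested as the 22Rv1 change minus the DU145 change. It passed for 7 of the 27 genes, 1 with a positive and 6 with a negative sign, where it passed for 7.94% of all genes, 4.43% positive and 3.51% negative. SCG5 (-4.27 ± 0.51, adjusted p = 0.00193), NEFL (-3.41 ± 0.29, adjusted p = 0.000377) and NCAM1 (-2.25 ± 0.56, adjusted p = 0.0447) rose in DU145-DR and did not pass in 22Rv1-DR, where the changes were -0.07, -0.07 and 0.02 and the readings of 22Rv1-DR and 22Rv1 were near the floor. CGA (-4.37 ± 0.35, adjusted p = 0.000308) and MAOA (-3.90 ± 0.32, adjusted p = 0.000336) fell in 22Rv1-DR and did not pass in DU145-DR, where the changes were -0.09 and -0.52. CGA lay below the 25th percentile of every DU145-DR and DU145 array of the 8, so a fall there could hardly show. BCHE differed by 6.60 ± 0.35 (adjusted p = 5.26e-05): it fell in DU145-DR and did not pass in 22Rv1-DR, where it lay below the brightness cut in both 22Rv1-DR and 22Rv1. NMB differed by -2.07 ± 0.51 (adjusted p = 0.0435), but by 0.39, the opposite sign, on the larger array. The difference for NRCAM (0.44 ± 0.31, adjusted p = 0.532) and L1CAM (0.60 ± 0.26, adjusted p = 0.226) did not pass, which does not show that the lines acted alike. The differences for NMB and NCAM1 were each lost in 11 alternative fits.

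**Figure D3:**
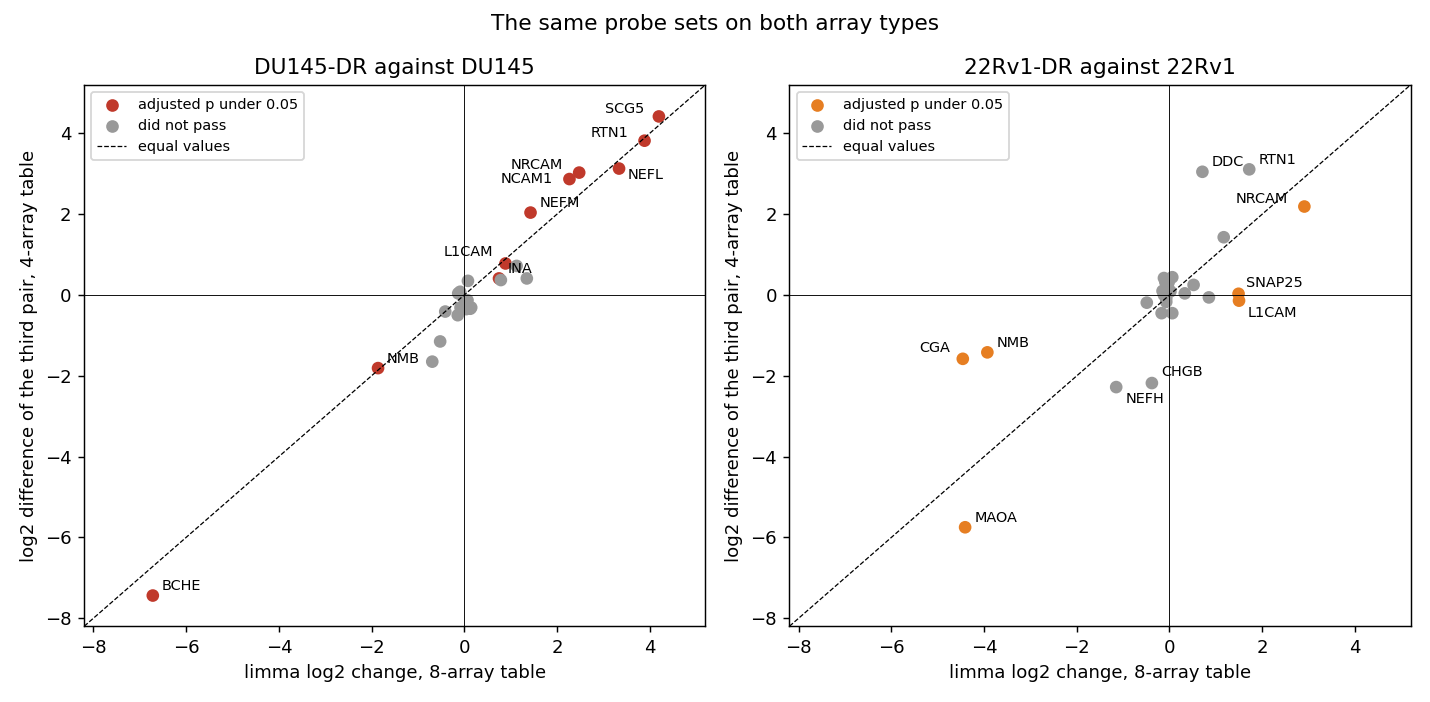
Log2 change in the 8-array fit (x axis) against the untested difference of the third pair (y axis) for the 27 tested genes, DU145-DR against DU145 at left and 22Rv1-DR against 22Rv1 at right; coloured points passed the test and the dashed line marks equal values. All 10 genes called in DU145-DR have the same sign on both axes, as do 969 of the 1019 called among all genes tested. In 22Rv1-DR 5 of 6 do, beside 472 of 523 among all genes. L1CAM is the exception, and SNAP25 lies at only 0.03 on the third pair.

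Genes of related pathways were counted beside them, where 10.8% of all genes changed in DU145-DR and 5.54% in 22Rv1-DR. The same brightness filter applied, so a listed gene could pass it through the group where it was high. NKX2-1, for example, was above the cut of 74.0 only in DU145 (1098 and 1261, against 44.0 and 61.4 in DU145-DR). The counts of these lists are therefore also a description. Of 20 tested regulators of the neuroendocrine state, 3 rose and 3 fell in DU145-DR. Those that fell were NKX2-1 (a lineage factor of lung and thyroid; -4.13 ± 0.20, adjusted p = 1.77e-05), PEG10 (a retrotransposon-derived gene; -2.82 ± 0.73, adjusted p = 0.0422) and FOXA1 (a pioneer factor of the prostate lineage; -2.34 ± 0.19, adjusted p = 0.000269). ID2, an inhibitor of basic helix-loop-helix factors, rose by 2.14 ± 0.46 (adjusted p = 0.0212). In 22Rv1-DR none of the 20 passed limma's test, with 0 up and 1 down at an unadjusted p under 0.05. REST, the repressor whose loss frees neuronal genes, did not pass in DU145-DR (0.21 ± 0.33, adjusted p = 0.852) or in 22Rv1-DR (0.29 ± 0.33, adjusted p = 0.892).

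Of 16 genes of the secretory granule and regulated secretion, 1 rose and 2 fell in DU145-DR. CPM, a membrane carboxypeptidase, fell by 3.55 ± 0.30 (adjusted p = 0.00031). In 22Rv1-DR 1 of the 16 rose, PAM, which amidates peptides (2.50 ± 0.20, adjusted p = 0.000239). Of 25 synaptic genes, 1 rose and 2 fell in DU145-DR, 12% and near the share of all genes, and AMPH (amphiphysin, of vesicle recycling) rose by 1.67 ± 0.18 (adjusted p = 0.000978). In 22Rv1-DR 1 of the 25, SNAP91, rose (1.08 ± 0.25, adjusted p = 0.0418). Of 19 genes of neuronal adhesion and cytoskeleton, 2 changed in DU145-DR, 10.5% and also near the share of all genes. NFASC (neurofascin, of the L1 family) rose by 2.04 ± 0.42 in DU145-DR (adjusted p = 0.0177) and DPYSL2 fell by 1.79 ± 0.22 (adjusted p = 0.00176), while MAP1B fell by 2.29 ± 0.22 in 22Rv1-DR (adjusted p = 0.00055), where 1 rose and 2 fell in all. None of 15 other neuropeptides and receptors passed limma's test in DU145-DR, with 0 up and 1 down at an unadjusted p under 0.05, and 2 fell in 22Rv1-DR, CALCB (-1.87 ± 0.37, adjusted p = 0.0233) and GAL (galanin; -1.35 ± 0.22, adjusted p = 0.00932). Of 14 genes of amine, acetylcholine and GABA metabolism, 2 fell in DU145-DR, ALDH2 (-1.80 ± 0.29, adjusted p = 0.00625) and GCH1 (-1.69 ± 0.21, adjusted p = 0.00176), and 1 rose in 22Rv1-DR, ABAT (1.02 ± 0.22, adjusted p = 0.0306), with the opposite sign on the third pair.

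**Figure D4:**
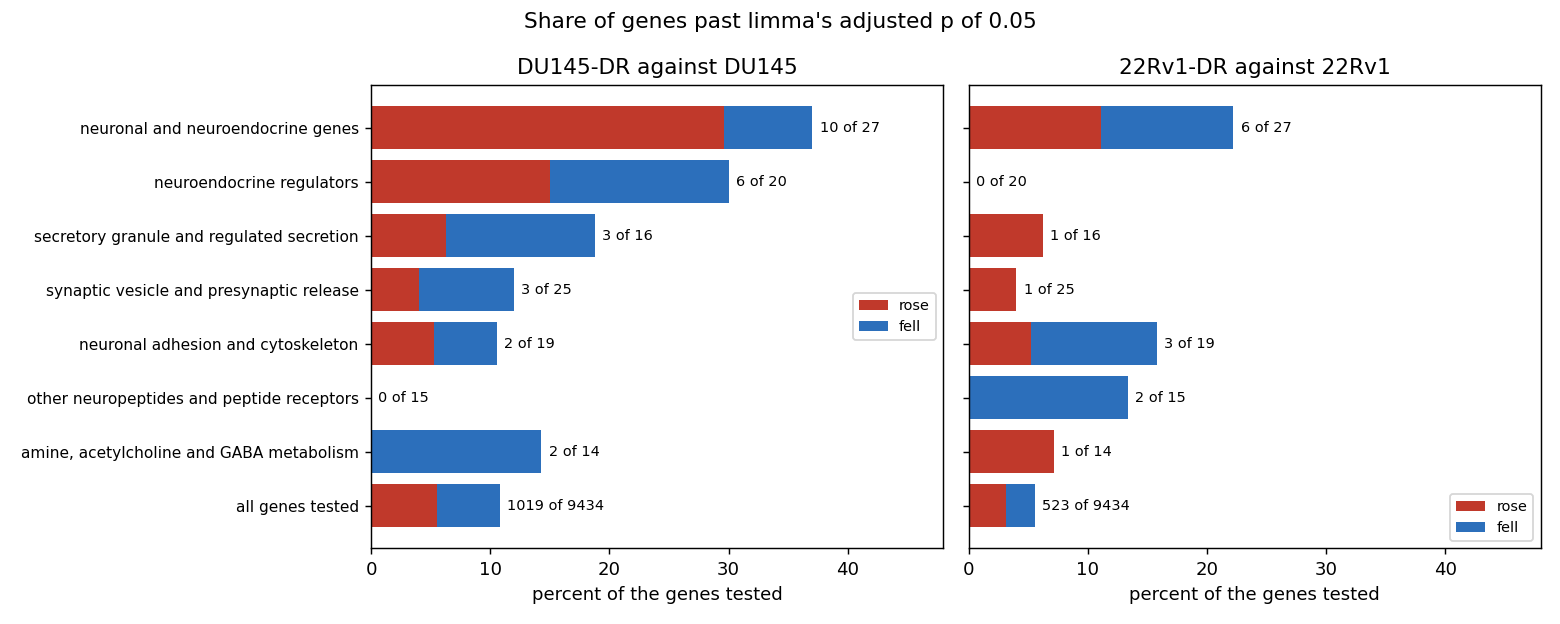
Share of tested genes that rose and fell in each resistant line, for the 27 neuronal and neuroendocrine genes, each related list and all genes tested. The 27 genes stand at 8 risen and 2 fallen in DU145-DR and 3 and 3 in 22Rv1-DR.

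Some epithelial markers, and single fibroblast and glial markers, changed in the comparisons, and their part in the results was not tested. Of 5 epithelial markers, 4 fell in DU145-DR and 2 in 22Rv1-DR, with summed intensities of 8563 to 8901 in DU145-DR against 19794 to 23631 in DU145, and 8183 to 8330 in 22Rv1-DR against 13568 to 14448 in 22Rv1. Of the 6 fibroblast markers, all with a probe set, only LUM rose in 22Rv1-DR (6.04 ± 0.23, adjusted p = 1.02e-05), where it read 2778 and 3984. Summed intensities were 2925 to 4144 in 22Rv1-DR against 197 to 218 in 22Rv1, so LUM made up most of the 22Rv1-DR sums. COL1A1 (-0.30), COL1A2 (0.01), COL3A1 (-0.04) and PDGFRB (-0.02) did not pass there, and DCN was dim. On the third pair LUM read 1698 in 22Rv1-DR against 729 in 22Rv1, a smaller difference of 1.20. In DU145-DR the fibroblast sums were 650 to 954 against 650 to 1024 in DU145. Of the 6 glial markers, 4 had a probe set and 1 was tested, MBP, which fell in DU145-DR (-1.90 ± 0.28, adjusted p = 0.00442), and GFAP, S100B and SOX10 were near the floor. Leukocyte markers, 4 of 5 with a probe set, summed to 265 to 376 in DU145-DR, 274 to 418 in DU145, 75.6 to 79.3 in 22Rv1-DR and 68.1 to 74.5 in 22Rv1.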

How the data were processed

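Per the labels' protocols, total RNA was extracted with Trizol and biotin-labelled cRNA was hybridised to Affymetrix arrays. The authors deposited linear-scale intensity for each probe set. The submitters' processing notes name MAS5 and RMA; their roles and versions stay unstated in the sources used here. Probe sets numbered 22215 in the 8-array table and 54613 in the other, and precision is limited by the number of arrays. Probe sets with 1 gene symbol were used (19064 and 41091); those with several or none were left out. Each gene was read from its brightest probe set, with those named _s_at, _x_at or similar used only where no other existed. Genes above the 40th percentile (intensity 74.0) in no group mean were left out as dim.

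The fit used limma 3.58.1 (R 4.3.3; lmFit, eBayes) over the 8 arrays (4 residual and 4.43 prior degrees of freedom) on log2 of the intensity plus 16, with 4 group means and no block. Benjamini-Hochberg adjustment ran over 9434 genes. Contrasts were each resistant line against its parent and their difference. The code was tested on simulated data. Every neuronal and neuroendocrine gene is named whatever its result; of the related lists, up to 4 genes with the largest changes past the threshold, and REST. The members and lists were chosen with earlier results of these data known. Alternatives were 2 normalizations, 2 pseudocounts, 2 filters, 2 treatments of probe sets, 2 sets of arrays, a replicate block, leaving out each array, and 1 rule on probe-set names. Promoter windows are RefSeq's (GRCh38.p14).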

Additional observations from a re-analysis of the deposited data

Results flagged for a closer look

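The change after resistance differed between the lines, by limma's test of the difference itself (22Rv1 change minus DU145 change), for 7 of the 27 genes. That test passed for 7.94% of all genes. The 7 were SCG5 (-4.27), NMB (-2.07), CGA (-4.37), NCAM1 (-2.25), NEFL (-3.41), MAOA (-3.90) and BCHE (6.60). The differences for NMB and NCAM1 did not hold under all alternative fits, and NMB had the opposite sign (0.39) on the third pair. SCG5, NCAM1 and BCHE passed the brightness filter through 1 group alone. The 22Rv1-DR and 22Rv1 readings of SCG5, NCAM1 and NEFL were near the floor.

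Probe sets that exist only on the larger array, outside the test, also gave signal in DU145-DR replicate 3 above that in DU145 replicate 3. NCAM1 read 247 against 20.7, a log2 difference of 2.84, while its 2 other probe sets there differed by -0.15 and 0.06. UCHL1 read 300.2 against 88.0, a difference of 1.60, although the gene's tested probe set differed by -0.31 on the same arrays. SNAP25 read 56.9 against 19.2, a difference of 1.05, while its tested probe set differed by 0.72 and its other one by -0.33 on the same arrays. Each is 1 array a group, with no test.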

How the results depend on the processing

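With 2 arrays a group, several calls rest on single arrays, and dim genes limit what can be seen. No call of a neuronal or neuroendocrine gene reversed under any alternative run. Calls kept under all of them were 5 of 10 in DU145-DR (SCG5, NRCAM, NEFL, RTN1, BCHE), 4 of 6 in 22Rv1-DR (NMB, CGA, NRCAM, MAOA) and 5 of 7 differences between lines (SCG5, CGA, NEFL, MAOA, BCHE). Fitting only the 4 arrays compared gave 262 changed genes in DU145-DR, against 1019, with 5 neuronal and neuroendocrine genes, and 1215 in 22Rv1-DR, against 523. All 12 arrays with the table as a block gave 458, 218 and 279 (DU145-DR, 22Rv1-DR and the difference), and quantile normalization gave 1189 differences, against 749. Leaving out an array gave 482 to 1436 changed genes in DU145-DR, 200 to 837 in 22Rv1-DR and 309 to 1213 differences, with 5 to 12, 5 to 8 and 5 to 10 neuronal and neuroendocrine genes; the 5 came without DU145 replicate 1 and 6 without DU145 replicate 2. Taking only _x_at and similar names as cross-hybridizing, chosen after seeing the data, gave 9, 6 and 6, and lost NCAM1 in DU145-DR, whose representative then was another probe set (adjusted p = 0.807). Fitting only the 4 arrays compared lost NMB (adjusted p = 0.0769), NCAM1 (0.0599), NEFM (0.081), INA (0.222) and L1CAM (0.136) in DU145-DR, and all 12 arrays lost SNAP25 (0.436) in 22Rv1-DR. RTN1 in 22Rv1-DR passed with only the 4 arrays (adjusted p = 0.00326) and with all 12 (0.0018), and NEFH in 22Rv1-DR passed under quantile normalization (0.0252) and with all 12 (0.04). The cause of these shifts was not tested.

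Replicate numbers were checked for pairing: deviations of replicate 1 from the group mean correlated at 0.699 between DU145-DR and DU145, 0.796 between 22Rv1-DR and 22Rv1, and 0.0846 to 0.0888 across lines. With 2 numbers a table this is a hint from the data, not the design. The replicate block gave 3328 changed genes in DU145-DR, 2094 in 22Rv1-DR and 3011 differences, with 15, 13 and 15 neuronal and neuroendocrine genes. It added calls for CPE (adjusted p = 0.00297), SYT1, SNAP25, CNTN1 and MAOA in DU145-DR, and for CPE (0.00326), SCG3, CALCA, SYT1, NEFH, RTN1 and DDC in 22Rv1-DR.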

Other observations

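CNTN1 (contactin 1, an adhesion molecule of axons) gave readings on the larger array that the smaller one could not show. One of its probe sets there read 20.1 in DU145-DR against 107 in DU145, and 16.2 in 22Rv1-DR against 202 in 22Rv1, with log2 differences of -1.77 and -2.76. Another read 8.46 in 22Rv1-DR against 72 in 22Rv1 (-1.85), but 8.94 in DU145-DR against 13.7 in DU145 (-0.25). The remaining one differed by -0.09 in the DU145 pair and -0.02 in the 22Rv1 pair. The CNTN1 probe set in the 8-array test differed by -0.41 and -0.45 on the same arrays. These are single arrays, with no test, and were picked after their values were seen.

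On the larger array, where floors were alike, SCG3, CHGB and VGF read 739, 347 and 709 in 22Rv1-DR and 265, 1629 and 975.5 in 22Rv1, and 10.9, 21.4 and 123 in DU145-DR and 13.4, 24.9 and 93.0 in DU145. UCHL1 ran the other way, at 7591 in DU145-DR and 9410 in DU145, against 32.7 in 22Rv1-DR and 23.1 in 22Rv1.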
